A study of Rattus norvegicus and Heterocephalus glaber with 6 samples.

Results

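Rbm3 and Cirbp encode the best known cold-inducible RNA-binding proteins of mammals, small proteins that carry a single RNA recognition motif followed by a glycine-rich region. Both transcripts are known to rise in mildly cooled cells and to fall when cells are warmed, and both were reported to be induced by low oxygen in cultured human cells. Rbm3 is known for supporting translation in the cold. Cirbp, also called hnRNP A18, binds stress-related mRNAs in the cell and, when released, acts as a danger signal through the receptor Tlr4. In mouse liver the daily cycle of body temperature drives a rhythm in both transcripts.

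The pair was chosen by symbol after the FPKM values of these libraries in both species had been seen, so the levels and the species difference below are a description with no test. All rows whose symbol equals one of these names, whatever the case, were taken. The rat tables held 2 of the 2 genes among 22549 rows per library, and the naked mole rat tables as used here held 1 of the 2, RBM3, among 734 rows per library. Cirbp was not analysed here in naked mole rat.

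The groups were naked mole rats, a subterranean rodent with weak control of its body temperature, and rats, the same tissue (liver) and exposure (8 hours at 8% oxygen) in each, with 3 libraries of polyadenylated RNA per species. Strain, age and body temperature are not stated in the labels, nor whether each library came from a separate animal, so spreads may in part be technical. Normoxia libraries were not analysed here, and the response of either gene to oxygen was therefore not measured. Values are FPKM as deposited, fragments assigned to a gene relative to transcript length and library size. They summed to between 17543 and 21793 in a naked mole rat library and between 527133 and 557187 in a rat library; the depth in fragments is unknown. Of 10 hepatocyte markers, 0 had a naked mole rat row, so the tissue could be checked in rat only, where 8 of 9 found stood at 10 FPKM or more in all 3 libraries and the other, Alb, had no usable value in rat 1 and rat 2. In bulk tissue, fewer cells of a type and less RNA per cell cannot be told apart.

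The promoters of the rat genes are shown because the response of Cirbp to mild cold has been traced in mouse to a short upstream element, and because they show how differently the pair is built. Each window is the 250 bases before the RefSeq start on the rat build GRCr8, which is not stated to be the build of the deposited tables. Capitals mark matches, on either strand, to the mild cold response element TCCCCGCC, the hypoxia response element core ACGTG, the GC box GGGCGG and the CCAAT box CCAAT. Rbm3 lies at chrX:17020655-17020904, plus strand, and Cirbp at chr7:10189476-10189725, minus strand.
Rbm3: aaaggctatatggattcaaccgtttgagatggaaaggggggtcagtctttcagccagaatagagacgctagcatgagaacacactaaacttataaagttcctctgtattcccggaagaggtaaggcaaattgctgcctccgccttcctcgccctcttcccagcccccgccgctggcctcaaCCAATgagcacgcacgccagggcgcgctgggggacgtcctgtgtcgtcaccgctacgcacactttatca
Cirbp: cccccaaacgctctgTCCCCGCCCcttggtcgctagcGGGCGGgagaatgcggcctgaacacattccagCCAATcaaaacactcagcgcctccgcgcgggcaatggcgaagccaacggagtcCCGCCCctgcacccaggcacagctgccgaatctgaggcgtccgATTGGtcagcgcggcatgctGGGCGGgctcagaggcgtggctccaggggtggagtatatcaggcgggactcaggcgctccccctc
The Cirbp window held 1 mild cold response element, beginning 235 bases before the start, and the Rbm3 window held 0. Over 33469 rat windows of the same length, 4.22% held this element. Its last letters overlap the first of 4 GC boxes in the Cirbp window, while the Rbm3 window held 0, and 30.5% of all windows held at least 1. CCAAT boxes numbered 1 in Rbm3 and 2 in Cirbp, a motif in 34.0% of all windows. The hypoxia core was found in neither, against 16.6% of all windows. The GC content was 54.8% for Rbm3 and 67.2% for Cirbp, against a median of 51.2% over all windows. A match says only that these letters are present, and no binding was measured.

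RBM3 was listed at low values in naked mole rat liver. It stood at 0.697, 0.378 and 0.378 FPKM in naked mole rat 1, 2 and 3, a mean of 0.484 ± 0.184 FPKM (SD, n = 3). Naked mole rat 1 was the high library and the other 2 were nearly equal. The lower confidence bound that Cufflinks gave the row was 0 in each of the 3 libraries, with upper bounds of 1.33, 0.703 and 0.715 FPKM. Such a bound was shared by 11.1% to 13.9% of the naked mole rat rows above 0. Between 72.7% and 81.0% of the rows above 0 in a library were higher than RBM3. The row lay on scaffold23228 from 927 to 3843, a span of 2916 bp (end minus start), with 0 other rows on that scaffold and 0 rows overlapping it.

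In rat liver both genes were plainly detected. Rbm3 stood at 17.7, 13.8 and 28.1 FPKM in rat 1, 2 and 3, a mean of 19.9 ± 7.41 FPKM (SD, n = 3). Rat 3 was the high library and rat 2 the low one, 2.04 times apart, and without rat 3 the mean was 15.7 FPKM. Cirbp stood at 15.1, 15.1 and 16.6 FPKM, a mean of 15.6 ± 0.906 FPKM (SD, n = 3), with rat 3 again highest but only 1.10 times the lowest. The range of Rbm3 contains that of Cirbp, so the 2 genes did not differ in level beyond the spread between rats. The ratio of Rbm3 to Cirbp was 1.18, 0.914 and 1.69 in rat 1, 2 and 3, so that Rbm3 was the higher gene in 2 rats and the lower in the other. Between 12.0% and 21.7% of the rat rows above 0 were higher than Rbm3, and between 18.2% and 20.3% higher than Cirbp. The value of Rbm3 in rat 3 exceeded its own upper bound of 27.9 FPKM, as 1633 of the 14920 rows above 0 in that library lay outside their own bounds.

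**Figure D1:**
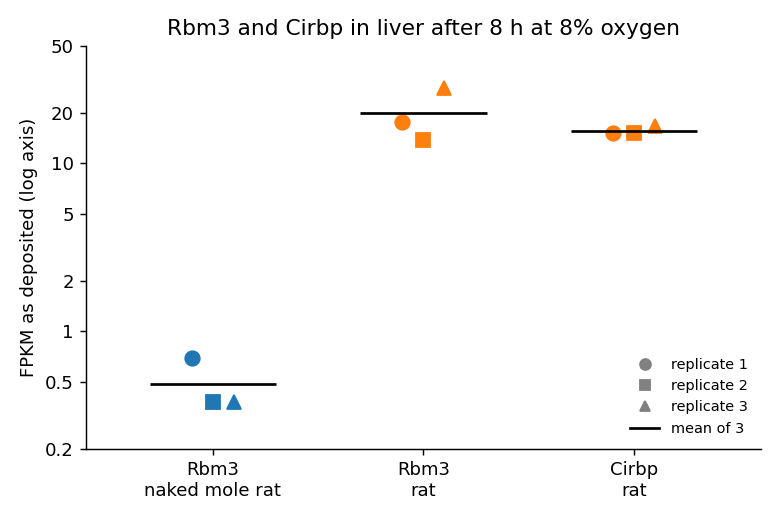
FPKM as deposited (log axis) of Rbm3 in 3 naked mole rat and 3 rat libraries and of Cirbp in 3 rat libraries; each symbol is a library and the line is the mean of 3. Naked mole rat RBM3 lies between 0.378 and 0.697 FPKM and rat Rbm3 between 13.8 and 28.1 FPKM, while the 3 Cirbp values lie within 15.1 to 16.6 FPKM.

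The rat Rbm3 row ran on chromosome X from 26379302 to 26382739, a span of 3437 bp, and the Cirbp row on chromosome 7 from 11047002 to 11050820, a span of 3818 bp, in the coordinates of the deposited tables, whose build is not given in the sources used here. Neither overlapped another row. The naked mole rat RBM3 span was 0.848 times the rat Rbm3 span, so the rows were of comparable extent by the limits of 0.5 to 2 times. The nearest rows on either side of rat Rbm3 were Tbc1d25, at 3.68, 4.13 and 3.91 FPKM in rat 1, 2 and 3, and Wdr13, at 6.13, 7.37 and 6.55 FPKM. The next rows out were Ebp, at 43.7, 49.1 and 52.4 FPKM, and Was, at 0.766, 1.47 and 1.88 FPKM. Rat 2 was the highest library in the nearer pair and rat 3, as in Rbm3, in the farther pair. Of the rat rows averaging 1 FPKM or more, 49.0% were highest in rat 2 and 33.5% in rat 3. Beside Cirbp lay RGD1562114, at 9.45, 6.29 and 9.72 FPKM, and Midn, at 15.6, 17.5 and 18.7 FPKM.

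The species ranges of Rbm3 did not overlap, and the lowest rat value was 19.8 times the highest naked mole rat value as deposited. How many of all tested symbols lacked overlap was not computed, so this does not set Rbm3 apart. After scaling the libraries by the median ratio over shared symbols, naked mole rat 1, 2 and 3 had 0.719, 0.427 and 0.397 scaled FPKM of RBM3. Rat 1, 2 and 3 had 17.9, 11.9 and 26.4 scaled FPKM of Rbm3. The mean difference on log2(scaled FPKM + 1) was -3.64, naked mole rat minus rat, which is 12.5-fold and understates the ratio of so low a value. With a pseudocount of 0.1 the difference was -4.90. The median difference was -0.38 over all 289 tested symbols and 0.36 over the 47 with rows of comparable span. RBM3 passed the filter of 1 scaled FPKM in at least 3 libraries through rat alone, so a low difference was built into its being tested, and its place among the others is not read as a result. Species, genome assembly, gene model and alignment cannot be told apart, and whether the naked mole rat row holds the whole transcript or a copy of the gene was not tested.

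**Figure D2:**
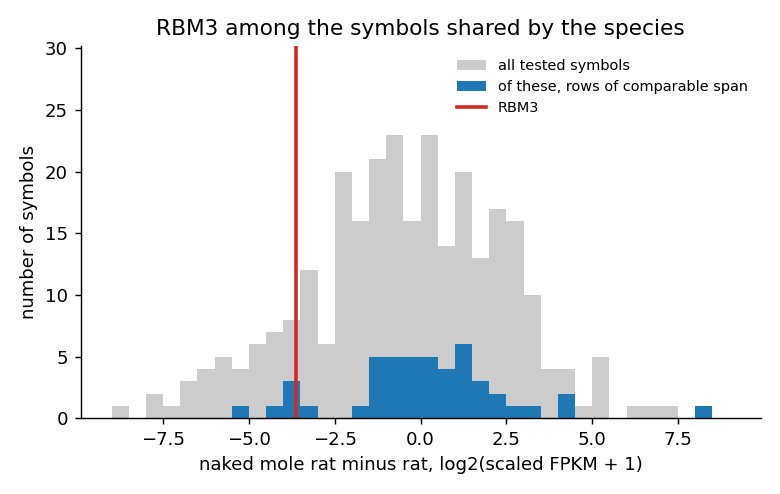
Number of symbols by difference in mean log2(scaled FPKM + 1), naked mole rat minus rat, for the 289 tested symbols (grey) and the 47 with rows of comparable span (blue). The red line marks RBM3 at -3.64; it entered this set through its rat values alone, so its place on the left follows in part from the filter and from the choice of the gene.

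The tested symbols whose profile over the 6 libraries, centred on its mean, was closest to that of RBM3 were NMI, TPD52, TPM4, HSPA8 and RPL12. The root mean square difference from RBM3 was 0.25 for NMI and 0.38 for RPL12 on the log2 scale. Every naked mole rat library listed NMI, TPM4 and RPL12 at 0, while their rat means were 13.4, 14.1 and 16.9 scaled FPKM. TPD52 averaged 0.077 scaled FPKM in naked mole rat. Like RBM3, NMI, TPD52, TPM4 and RPL12 passed the filter through rat alone, so their closeness follows in part from the filter. HSPA8 passed it in both species, with means of 16.7 scaled FPKM in naked mole rat and 234 in rat. No shared behaviour is read from the closeness of these 5. RPL12, a ribosomal protein that nearly all cells use and whose copies can split reads, alone among the 5 had rows of comparable span.

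Most genes that work with Rbm3 and Cirbp could be followed in rat only. The heat-induced list holds genes that mostly respond to temperature in the opposite direction, though it includes the constitutive HSPA8. Of 12 listed, 2 had a row in both species and both were called higher in rat. A symbol was called at a limma adjusted p under 0.05 with a log2 difference of at least 1. Of the 289 symbols tested, 94 (32.5%) were called with naked mole rat the higher species and 118 (40.8%) with rat the higher, so 2 calls of 2 single out nothing about heat-induced genes. HSPE1, the mitochondrial co-chaperonin, averaged 8.20 ± 0.618 scaled FPKM in naked mole rat, against 249 ± 29.4 scaled FPKM in rat (SD, n = 3 each), a log2 difference of -4.76 ± 0.13 (SE; limma adjusted p = 2.37e-08). HSPA8, the constitutive Hsp70, averaged 16.7 ± 2.18 scaled FPKM in naked mole rat, against 234 ± 22.5 scaled FPKM in rat (SD, n = 3 each), a log2 difference of -3.74 ± 0.14 (SE; limma adjusted p = 1.32e-07). Neither gene's libraries overlapped between the species, but the share of all tested symbols without overlap was not computed, so this sets neither gene apart. Scaling each library to the same sum over the shared symbols gave 169 calls with naked mole rat higher and 108 with rat higher, of 358 tested. The naked mole rat HSPE1 row spanned 3263939 bp, and HSPA8 was summed over 3 rows, of 1974 to 3340258 bp, and HSPA8 has near-identical copies.

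Within rat, Rbm3 was the more variable gene of the pair. Its SD on log2(FPKM + 1) was 0.50 over the 3 libraries, against 0.078 for Cirbp and a median of 0.14 over the 9994 rat rows that averaged 1 FPKM or more. Of these rows, 3.47% had an SD at least as high as Rbm3 and 78.7% one at least as high as Cirbp. Scaled on the rat tables' own rows, Cirbp stood at 15.8, 14.5 and 16.5 FPKM in rat 1, 2 and 3, and the SD was 0.51 for Rbm3 and 0.090 for Cirbp. In naked mole rat the SD of RBM3 was 0.17, on values under 1 FPKM, where adding 1 compresses the scale.

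**Figure D3:**
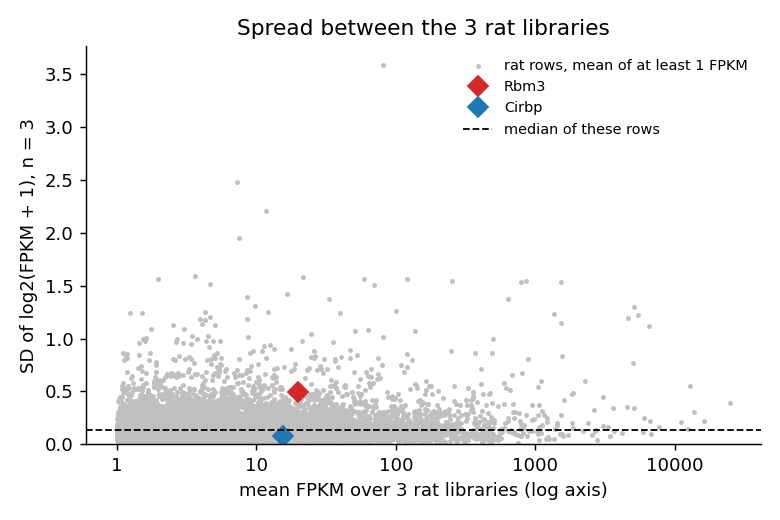
SD of log2(FPKM + 1) over the 3 rat libraries against the mean FPKM (log axis), for the 9994 rat rows averaging 1 FPKM or more (grey), Rbm3 (red) and Cirbp (blue). Rbm3 lies at 0.50, above the median of 0.14 (dashed), and Cirbp at 0.078, below it.

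Among genes named RBM, which share RNA recognition motifs rather than a response to cold, Rbm3 ranked 5th by rat level, and by spread it came 1st on the SD of log2(FPKM + 1) but behind Rbm12b on the ratio of highest to lowest library. The rat tables held 34 such symbols, of which 27 had a mean of at least 1 FPKM and 10 of at least 10 FPKM. Rbm8 (now Rbm8a), of the exon junction complex, led at 35.1 ± 1.82 FPKM (SD, n = 3). The splicing factors Rbm39 and Rbm17 stood at 28.5 ± 2.93 and 24.3 ± 0.947 FPKM (SD, n = 3), and Rbm35b (now Esrp2), an epithelial splicing regulator, at 24.7 ± 2.70 FPKM. Their 3 libraries lay within 1.07 to 1.24 times of each other, against 2.04 times for Rbm3. Rbm12b stood at 1.97, 4.05 and 2.08 FPKM in rat 1, 2 and 3, with rat 2 high, a ratio of 2.06 and an SD of 0.43 at a level where adding 1 compresses the scale, against 0.50 for Rbm3. The median SD on log2(FPKM + 1) over the 27 genes was 0.12. Of these 34 rat symbols, RBM3 alone had a naked mole rat row, and RBM names without a rat row were not searched for.

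**Figure D4:**
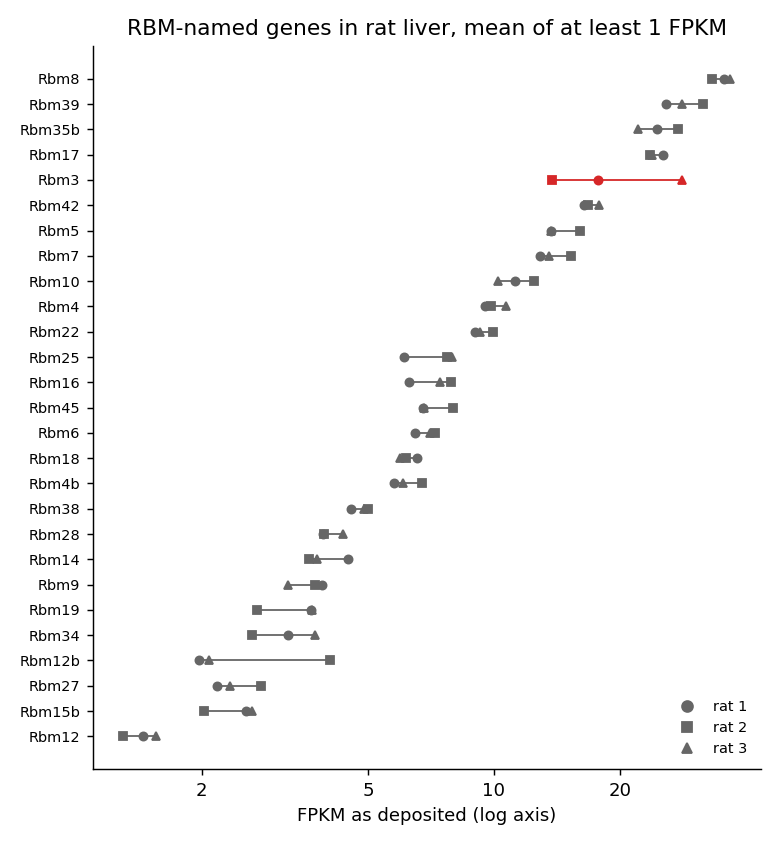
FPKM as deposited (log axis) of the 27 rat genes named RBM with a mean of at least 1 FPKM, ordered by mean; each symbol is a rat library and the line joins the lowest and highest. Rbm3 (red) runs from 13.8 to 28.1 FPKM and the line of most other genes is short.

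The Y-box and cold-shock domain proteins, a separate family that takes its name from the bacterial cold-shock proteins, were led in rat by Ybx1. Of 9 listed symbols 8 had a rat row and 3 a mean of at least 10 FPKM. Ybx1, an abundant mRNA-packaging protein, stood at 153, 152 and 146 FPKM in rat 1, 2 and 3. Csda (now Ybx3) stood at 23.6, 30.4 and 30.0 FPKM, with rat 1 low, and Carhsp1 at 16.6, 18.5 and 18.0 FPKM. Rat 3 was the highest library in 0 of these 3 genes, against 33.5% of all rat rows at 1 FPKM or more, and no test was made.

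The relatives of Cirbp among the glycine-rich and hnRNP proteins were mostly more abundant than the pair. Of 17 listed, 15 had a rat row and 11 a mean of at least 10 FPKM, with a median level of 35.1 FPKM. Hnrnpa2b1, which packages and sorts mRNA, stood at 200 ± 9.36 FPKM (SD, n = 3), Hnrnpab at 85.1 ± 9.40 FPKM and Hnrnpa3 at 49.6 ± 4.04 FPKM. Hnrpd (now Hnrnpd), which controls the decay of AU-rich mRNAs, had the widest spread of the list, at 30.3, 38.0 and 44.2 FPKM in rat 1, 2 and 3. Rbmx, close to Rbm3 in structure, held at 10.1, 10.1 and 9.71 FPKM. Copies of hnRNP genes can split reads. The median SD on log2(FPKM + 1) of the 14 genes at 1 FPKM or more was 0.15.

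Of 18 listed genes reported to act on Rbm3 or Cirbp or on responses to temperature, 18 had a rat row and 16 a mean of at least 1 FPKM. The kinases Clk1 and Clk4, whose activity is known to depend on temperature, stood at 32.5, 41.6 and 31.5 FPKM and at 6.60, 8.93 and 7.18 FPKM in rat 1, 2 and 3, both with rat 2 high. Clk3 was also highest in rat 2, at 20.5, 23.4 and 22.7 FPKM, whereas Clk2 followed the Rbm3 order at 8.79, 8.05 and 9.504 FPKM. Of the 16 genes, 11 were highest in rat 2, against 49.0% of all rat rows at 1 FPKM or more, and 4 followed the Rbm3 order, against 14.0%. Sfrs5 (now Srsf5), a splicing factor that such kinases phosphorylate, stood at 98.5, 112 and 94.8 FPKM, again with rat 2 high. Hnrph1 (now Hnrnph1), which in human cells acts on the poison exon of RBM3, stood at 29.8, 28.8 and 30.1 FPKM, nearly level, and Csnk2a1, a casein kinase subunit, at 30.4 ± 3.06 FPKM (SD, n = 3). Sp1, which binds the cold response element of Cirbp, stood at 3.54 ± 0.0689 FPKM and Hsf1, the heat shock factor, at 6.67 ± 0.331 FPKM (SD, n = 3). Prmt1, which methylates Cirbp, stood at 11.8 ± 0.807 FPKM and Tnpo1, its nuclear importer, at 6.24 ± 0.970 FPKM (SD, n = 3). The temperature-gated channels Trpv4 and Trpm8 averaged 0.123 and 0.00827 FPKM.

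Of 20 symbols listed as targets or partners, 18 had a rat row and 15 a mean of at least 1 FPKM. Txn1, thioredoxin, whose mRNA Cirbp binds in human cells, stood at 201 ± 6.69 FPKM (SD, n = 3), and Rpl4, a ribosomal protein with copies that can split reads, at 229 ± 19.2 FPKM. Eif4g1, the scaffold of the cap-binding complex, stood at 82.7 ± 4.62 FPKM (SD, n = 3). Vegfa, a hypoxia-induced growth factor, stood at 88.6, 117 and 70.2 FPKM in rat 1, 2 and 3, with rat 2 high and rat 3 low, the reverse of the Rbm3 order. Per1, a clock gene, followed the Rbm3 order at 19.9, 13.2 and 20.6 FPKM, while its paralog Per2 was highest in rat 2 at 7.77, 9.59 and 8.38 FPKM. Clock, whose mRNA Cirbp supports in mouse cells, stood at 3.09 ± 0.302 FPKM (SD, n = 3), also highest in rat 2. Rtn3, a target of Rbm3 in mouse brain, stood at 22.1 ± 1.66 FPKM (SD, n = 3). Of the receptor for extracellular Cirbp, Tlr4 was at 0.142, 0.215 and 0.232 FPKM and its partner Ly96 at 16.0, 7.86 and 7.77 FPKM, with rat 1 high. Of these 15 genes, 4 followed the Rbm3 order over the rats and 2 its reverse, against 14.0% and 19.9% of all rat rows at 1 FPKM or more.

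The genes of stress granules, into which Cirbp moves under stress, and of translation control formed the steadiest of these lists. Their median SD on log2(FPKM + 1) was 0.065 over the 14 at 1 FPKM or more. Of these 14, 8 were highest in rat 3, against 33.5% of all rat rows at 1 FPKM or more. The Rbm3 order was followed by 4, against 14.0%, and no test was made. Of 15 listed, 15 had a rat row and 9 a mean of at least 10 FPKM. Pabpc1, the poly(A)-binding protein, stood at 77.1 ± 1.29 FPKM (SD, n = 3), Caprin1 at 43.3 ± 2.06 FPKM, Eif4ebp1, the brake on cap-dependent translation, at 31.9 ± 0.550 FPKM and Ddx3x at 27.9 ± 1.81 FPKM. G3bp1, the granule scaffold, stood at 9.41 ± 0.461 FPKM (SD, n = 3).

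The heat-induced genes were set beside Rbm3 over the 3 rats. Hspa1a, the classic inducible Hsp70, stood at 5.71, 8.49 and 4.78 FPKM in rat 1, 2 and 3, high in rat 2 where Rbm3 was low and low in rat 3 where Rbm3 was high; its row lies within that of its near-identical copy Hspa1b. Dnajb1, its co-chaperone, stood at 17.3, 21.8 and 17.2 FPKM, and Bag3 at 17.3, 22.5 and 18.4 FPKM, both with rat 2 high. Hspb1 stood at 16.6, 14.4 and 12.6 FPKM, with rat 1 high instead. Hspe1, at 277, 257 and 261 FPKM, Hspd1, at 143, 134 and 144 FPKM, and Hspa8, at 257, 253 and 240 FPKM, varied little, as did Hsp90aa1 at 28.8 ± 1.59 FPKM (SD, n = 3). Of the 9 genes at 1 FPKM or more, 3 ran in the exact reverse of the Rbm3 order and 5 were highest in rat 2. Over all 9994 rat rows 19.9% ran in that reverse order and 49.0% were highest in rat 2, so the counts are near the background. Rows lowest in rat 2 and highest in rat 3, the order of Rbm3, made up 14.0% of the 9994. No test was made on these orders, since 3 rats give 1 order per gene and genes share the same rats.

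**Figure D5:**
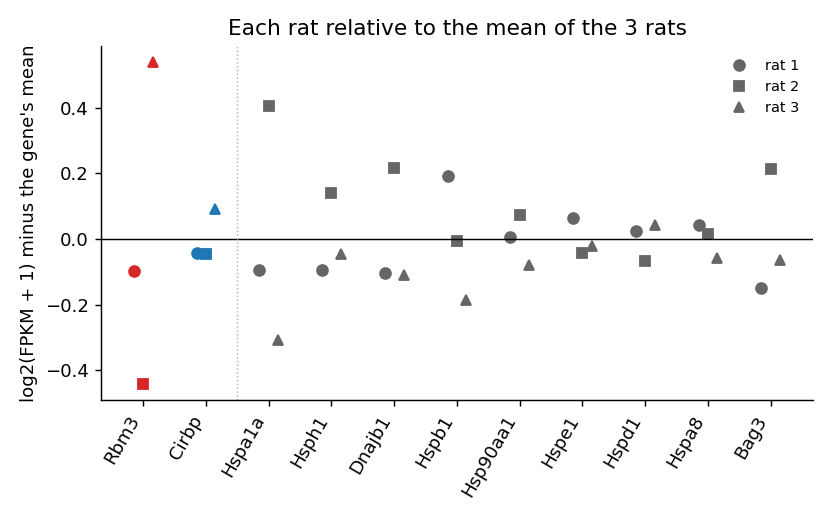
log2(FPKM + 1) minus the gene's own mean over 3 rats, for Rbm3 (red), Cirbp (blue) and the 9 heat-induced genes at 1 FPKM or more (grey); each symbol is a rat library. Rbm3 is 0.54 above its mean in rat 3 and Hspa1a is 0.40 above its mean in rat 2, while Cirbp stays within 0.09 of its mean.

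The rows of rat liver closest to Rbm3 in level and pattern, over 3 libraries and not centred, were Slc35b1, Ly6e, Mecr, Flot2 and Ccdc56. Slc35b1, a nucleotide transporter of the endoplasmic reticulum, stood at 19.6, 14.3 and 26.6 FPKM in rat 1, 2 and 3, a root mean square difference of 0.095 on the log2 scale. Ly6e stood at 18.7, 12.3 and 24.6 FPKM. Those closest to Cirbp were Il1rn, Lsm12, Tubg1, Zmynd11 and Cdc123, with Il1rn at 15.4, 15.2 and 16.6 FPKM. 

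Cell type markers differed among the rats as well. The summed level of the 7 Kupffer cell or macrophage markers found was 194, 206 and 263 FPKM in rat 1, 2 and 3, with Marco at 0 in every rat. Rat 3 was the highest library here, as in Rbm3, but rat 1 rather than rat 2 was the lowest. The same held for the 4 cholangiocyte markers, at 11.6, 12.8 and 16.6 FPKM in sum. The hepatocyte sum was highest in rat 3 too, but Alb has a usable value in rat 3 alone, so the sums are not comparable. The sum of the 4 neutrophil markers was 2.23, 7.80 and 10.1 FPKM, with Elane at 0, again highest in rat 3 and lowest in rat 1. That of the 6 stellate cell markers was 30.6, 21.7 and 32.0 FPKM, in the full Rbm3 order. The 1 erythroid marker found, Hbb, stood at 54.4, 357 and 348 FPKM, low in rat 1. The 4 sinusoidal endothelial markers summed to 56.8, 51.5 and 49.1 FPKM, with rat 3 lowest. The 4 T or NK cell and 3 B cell markers stayed below 2.3 FPKM in sum, both highest in rat 3. The part of these cells in the Rbm3 pattern was not tested.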

How the data were processed

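The authors deposited FPKM values in 1 gene table per library, in the Cufflinks layout per the file headers, where confidence bounds, a status and a locus accompany each value. Cufflinks 2.1.1, TopHat2 2.0.9, Bowtie2 2.1.0 and Picard 1.137 are listed in the submitters' processing notes, without their roles; the build and annotation of the tables are not given there. Rat rows with the status HIDATA (1 row in rat 1 and in rat 2) were treated as missing.

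Members were matched by symbol without regard to case, and list symbols also through RefSeq synonyms. For the species comparison, rows of the 388 shared symbols were summed by symbol and libraries divided by factors of 0.885 to 1.16, the median ratio over symbols above 0 in all 6 libraries. Symbols with at least 1 scaled FPKM in at least 3 libraries (289) were fitted in R 4.3.3 by limma 3.58.1. The fit used log2(scaled FPKM + 1), a mean-variance trend and p-values adjusted by Benjamini-Hochberg. It was also run on simulated normal values with fewer changed symbols and no scaling step, so that run does not vouch for these calls. No p is given for the members. FPKM carry no counts, so no counting interval was computed.

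The members and lists were chosen with earlier results of these data known. Per list, up to 4 genes of highest rat mean and every gene found in both species are named by rule, except where a gene is not reported here, as are the 5 rows most like each member; other named genes, the neighbouring rows and the centred likeness were chosen after their values were seen. Promoters are from RefSeq (GRCr8; both members matched).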

Additional observations from a re-analysis of the deposited data

How the results depend on the processing

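RBM3 remained lower in naked mole rat under all alternatives run for its difference, which was -3.64 as reported. The difference was -4.14 with libraries scaled to the same sum, -4.90 with a pseudocount of 0.1 and -3.35 with quantile normalization. Without 1 library it ran from -3.95 to -3.38. The median difference of all tested symbols was -0.38, but -0.62 on FPKM as deposited, 0.77 with equal sums and 0.16 with quantile normalization. The calls, 94 for naked mole rat and 118 for rat as reported, became 169 for naked mole rat with equal sums, and 16 and 11 with comparable spans alone (47 tested, chosen after seeing the data). Without 1 library they ran from 94 to 104 and from 117 to 124. With symbols of several rows left out, 1 heat-induced gene was tested and called. HSPE1 and HSPA8 stayed called in every alternative that tested them, with limma adjusted p up to 2.60e-06 and 8.22e-06. The alternative with comparable spans alone included neither gene, so whether their calls depend on row extent was not tested. The scaled mean of Cirbp was 14.6 FPKM. The SD of RBM3 in naked mole rat was 0.43 with a pseudocount of 0.1, since values under 1 FPKM are compressed by adding 1. Without 1 library the mean of Rbm3 ran from 0.378 to 0.537 FPKM in naked mole rat and from 15.7 to 22.9 FPKM in rat, and that of Cirbp from 15.1 to 15.9 FPKM.

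A replicate block gave 94 and 118 calls. The labels do not say whether same-numbered libraries were handled together. Same-numbered libraries of the 2 species had deviations correlated at -0.086 to -0.037. Differently numbered libraries ran from -0.060 to 0.117, so these values cannot show whether the numbers pair the libraries.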

Other observations

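When rat profiles were centred on their means, a choice made after seeing the data, the 10 rows closest to Rbm3 over the 3 rats were Gnat1, Pltp, Clec4a3, LOC100361758, C6, LOC688968, Hyou1, Igfbp2, C4-2 and Dennd2a. Of these, C6, a complement component, stood at 28.3, 22.8 and 42.0 FPKM in rat 1, 2 and 3, and C4-2, a complement row with near-identical copies, at 100.3, 78.8 and 141 FPKM. Pltp, a phospholipid transfer protein, stood at 10.9, 9.10 and 17.8 FPKM, and Hyou1, a hypoxia-induced chaperone, at 23.1, 17.0 and 33.0 FPKM. That rat 3 was highest and rat 2 lowest in each follows from choosing rows for their likeness to Rbm3. No theme is read from these 10 rows, and no test was made.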
